A study of Mus musculus with 36 samples.

Results

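RNA of mouse skin wounds taken 2 days after injury was compared between the PD and the P arm of the study. The labels place 5 libraries in each arm at that day, so the comparison rests on 10 of the 36 libraries of the series. Members were chosen by arm and day alone, with no measured value involved. All 10 libraries are labelled as skin and were made from wounds frozen in liquid nitrogen at harvest, from which total RNA was extracted. The labels give the arms as P and PD and do not spell the letters out. Strain, sex, age, genotype, any agent given to either arm, the cells that a transgene would act in, and the number of animals per library are not stated. The study's title concerns the removal of cells that express p21 highly during the healing of skin wounds, and the comparison asks how the arms differed in the earliest wounds sampled. The labels do not say that replicates came from separate animals, so the p-values measure only the spread between samples, which may be technical. In the main fit that spread was estimated over all 36 libraries, other days and unwounded skin included.

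A skin wound passes through clotting, inflammation, new tissue formation and remodelling. In the inflammatory phase neutrophils enter first and clear microbes and debris. Monocytes follow and become macrophages that secrete cytokines, growth factors and enzymes. p21, the product of Cdkn1a, binds and inhibits cyclin-dependent kinases and is induced by p53 and by other stress signals. Cells that keep p21 high can stop dividing and secrete inflammatory proteins, a state called senescence.

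Each library held 23.419 to 47.378 M counts in the P arm and 30.154 to 44.56 M in the PD arm. Mitochondrial transcripts took 3.1 to 5.81% and 3.33 to 5.68% of the counts. The keratin gene Krt14, a marker of the basal epidermis, had a mean of 5559 CPM (counts scaled to the size of each library by the trimmed mean of M values, TMM) in P and 5998 CPM in PD, so epidermis was present in both arms. Acta1, the actin of skeletal muscle, had means of 9494 and 9027 CPM, so muscle was present as well. No replicate pair looked like one library counted again, with a chi-square per degree of freedom of at least 31.4 in P and 40.3 in PD.

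The largest axis of variation among the 10 libraries did not separate the arms. The first principal component held 39.5% of the variance of log2 CPM and parted P replicates 1 and 2 and PD replicates 1, 2 and 3 from P replicates 3, 4 and 5 and PD replicates 4 and 5. These are called the first and the second set below. They were found in the data and carry no label, but they largely follow the replicate numbers. In both arms replicates 1 and 2 fell in the first set and replicates 4 and 5 in the second, while replicate 3 was split. The summed level of 10 mast cell genes was 95.7 to 144 CPM in the first set and 19.7 to 34.4 CPM in the second. The mean log2 level of fibroblast genes was 2.06 higher in the first set, and that of sebaceous gland genes was lower, with a difference of -1.19. Because the arms do not split evenly over the sets, arm differences are also given within each set, as differences of mean log2 CPM with no test. In whole tissue, fewer cells of a type and less RNA per cell cannot be told apart.

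**Figure D1:**
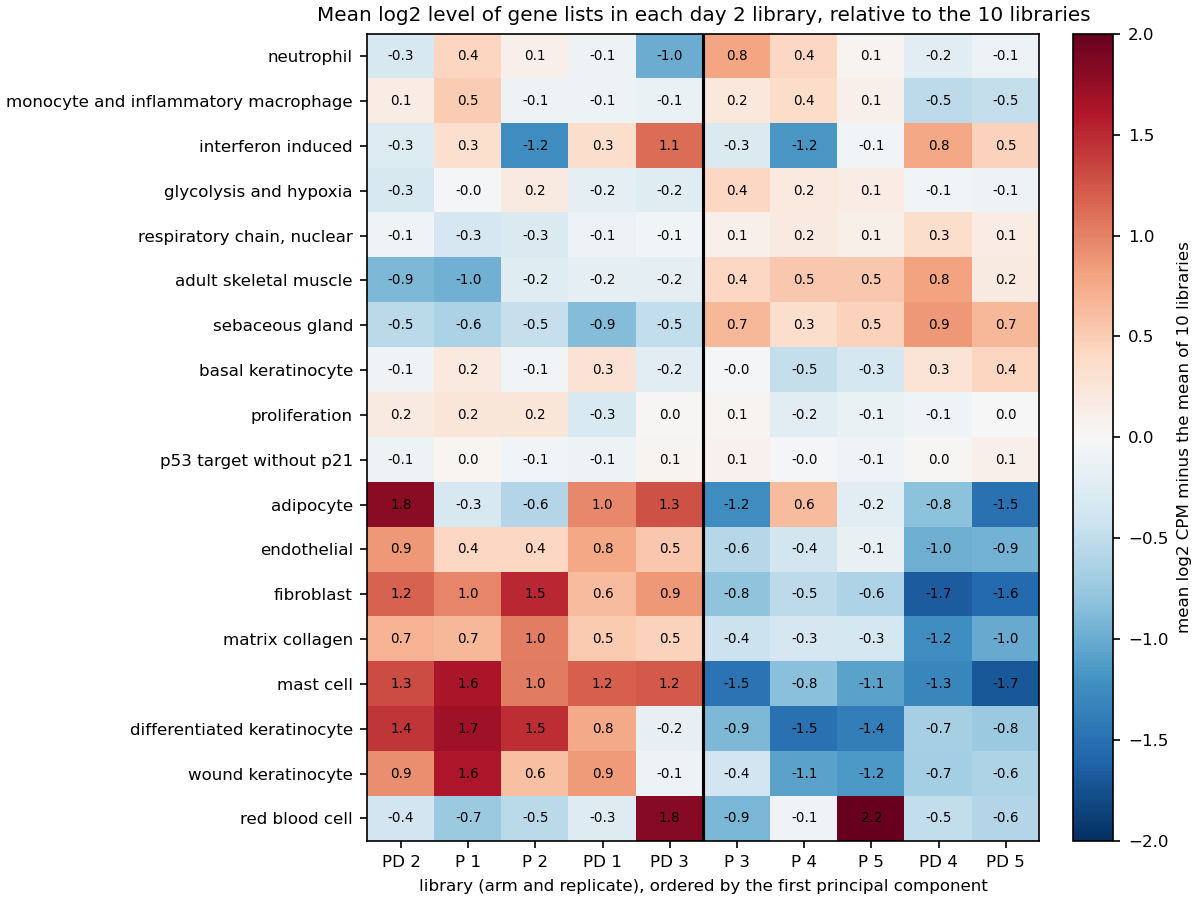
Heat map of the mean log2 CPM of 18 gene lists (rows) in the 10 day 2 libraries (columns, ordered by the first principal component), each relative to the mean of the 10 libraries, with the value printed in each cell. The line parts the first set (left) from the second (right). Mast cell values are between 1.0 and 1.6 on the left and between -1.7 and -0.8 on the right in both arms. Neutrophil values are lower in PD than in P within both sets. Interferon values are higher in every PD library within the second set only. In the first set PD replicate 2 (-0.27) lies below P replicate 1 (0.32), and P replicate 2 is lowest (-1.24).

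No gene passed the threshold in the comparison of PD with P wounds. Of 20657 genes tested with edgeR's quasi-likelihood test, 0 had an adjusted p under 0.05 by the Benjamini-Hochberg method (0%), and the adjusted p was 1 for every gene. At an unadjusted p under 0.05 there were 793 genes (3.84%), of which 298 were higher in PD (1.44%) and 495 lower (2.4%). The median log2 difference over all genes was -0.01, and 47.8% of genes lay above 0. The median standard error was 0.29 on the log2 scale, or 0.21 among the 14942 genes with a mean of at least 1 CPM. Every difference given below therefore failed the correction with edgeR and is described by its values.

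DESeq2 called 24 genes and limma-voom with sample weights called 1. Of the 24, 23 had reads in only 1 or 2 of the 10 libraries, and most of these were hair keratin and keratin-associated genes. The gene that both tools called was Stxbp5, which encodes tomosyn, an inhibitor of vesicle fusion. Stxbp5 (ENSMUSG00000019790, GRCm39 chr10:9630985-9777400, minus strand) lay at 41.1, 52.0, 46.0, 51.8 and 50.4 CPM in P replicates 1 to 5 and at 35, 37.9, 34.6, 34.1 and 36.2 CPM in PD. Every PD library was below every P library. The log2 difference was -0.44 (SE 0.10), with an edgeR p of 0.000115, a DESeq2 adjusted p of 0.0229 and a limma-voom adjusted p of 0.0171. It was -0.37 within the first set and -0.49 within the second.

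Arms that did not overlap were mostly those with PD lower. Every PD library lay below every P library for 289 genes (1.4%) and above for 59 (0.286%). This split depended on the scaling: without a composition factor the counts were 146 and 139, and the genes at an unadjusted p under 0.05 became 494 higher and 279 lower. The 289 became 455 without P replicate 1, 443 without P replicate 2 and 458 without P replicate 5. The 59 became 92 to 166 when any one of the 10 libraries was left out, where fewer libraries make separation easier.

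**Figure D2:**
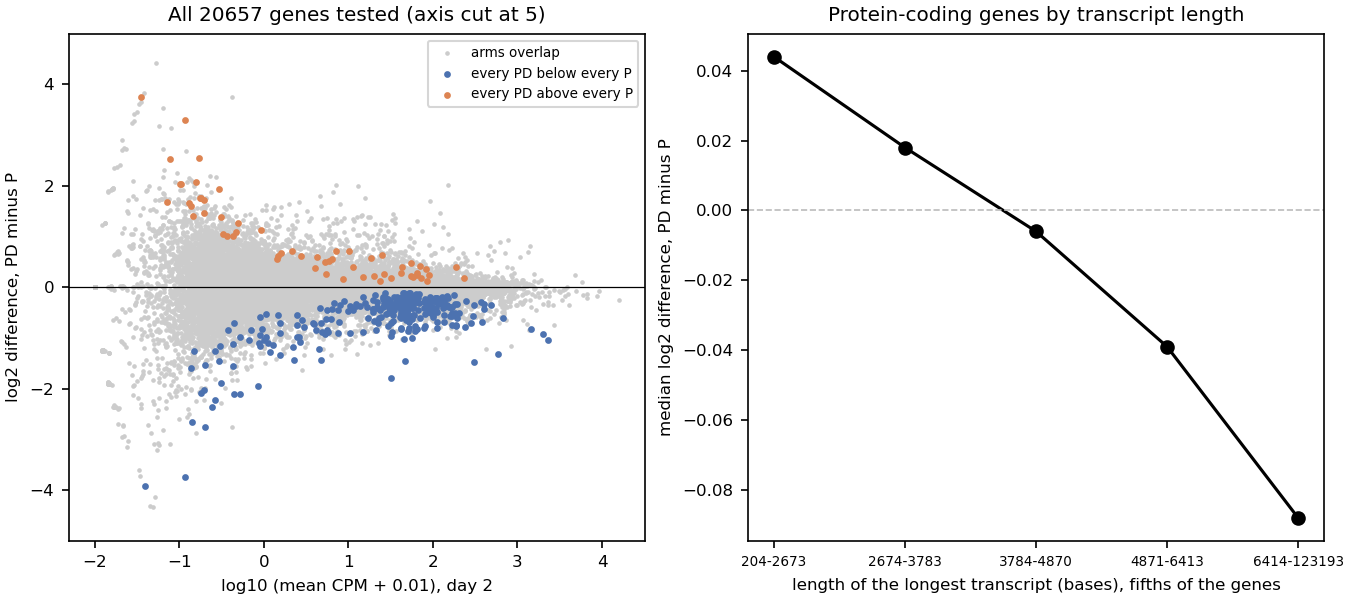
Left, the log2 difference between PD and P (y axis) against the log10 of the mean CPM plus 0.01 (x axis) for each of the 20657 genes tested, with genes whose arms do not overlap in colour (blue, 289 lower in PD; orange, 59 higher). Right, the median log2 difference of protein-coding genes in 5 groups of equal number by transcript length, which goes from 0.044 in the shortest to -0.088 in the longest.

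Cdkn1a did not separate the arms. Cdkn1a (ENSMUSG00000023067, chr17:29309936-29319701, plus strand) lay at 380.2, 354, 463, 300.1 and 360.5 CPM in P replicates 1 to 5 and at 279, 225, 272, 388 and 416 CPM in PD. The means were 372 ± 59.0 CPM and 316 ± 81.7 CPM (SD, n = 5 each), and the ranges overlapped. The log2 difference was -0.23 (SE 0.20, 95% interval -0.64 to 0.17, edgeR p 0.244). An exact two-sided permutation test over the 10 libraries gave p = 0.23, where the smallest possible value is 0.00794. The PD libraries of the first set were the lower ones: the difference was -0.51 within the first set and 0.12 within the second. With limma-voom the unadjusted p was 0.0297, and with 2 surrogate variables it was 0.0153. Neither passed the adjustment. The design cannot tell lower p21 per cell from fewer p21-high cells in whole wounds.

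Lists of other genes of the p21 pathway and of senescence had medians near 0, while single members lay further away. Of 18 p53 targets other than Cdkn1a, 0 were called, 8 were higher and 10 lower, and the median log2 difference was -0.01 (0.06 without a composition factor). Mdm2, which encodes the ubiquitin ligase that degrades p53, had means of 112 ± 12.2 and 92.0 ± 12.7 CPM (log2 -0.28, SE 0.20, edgeR p 0.173). Gdf15, a secreted stress hormone of the TGF-beta superfamily, pointed the other way, with 1.25, 0.74, 1.57, 1.28 and 1.67 CPM in P and 0.91, 1.27, 4.99, 2.01 and 3.34 CPM in PD (log2 0.94, SE 0.49, edgeR p 0.0616). PD replicates 3, 4 and 5 were above all P libraries and replicates 1 and 2 were not. Of 10 senescence markers 8 were lower, with a median of -0.07. Without a composition factor, 5 were higher and 5 lower. Cdkn2a, which encodes p16 and p19Arf, was at or below 0.65 CPM in all 10 libraries, and its sign turned when PD replicate 3 was left out (log2 0.62 with it, -0.05 without).

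The 24 secreted factors of the senescence list had a median of -0.07, with 11 higher and 13 lower and 0 called. That median ran from -0.27 to 0.21 over the alternative settings and changed sign in 5 of 21. The mean difference of the list was -0.38 within the first set and -0.11 within the second. The arms did not overlap for 3 of the 24, all lower in PD, namely Timp1, Tnf and Csf3. Over all genes 1.4% had every PD library lower and 0.286% higher. Timp1, an inhibitor of matrix metalloproteinases, lay at 302, 362, 322, 286 and 235 CPM in P and at 221, 206, 166, 121 and 164 CPM in PD (log2 -0.78, SE 0.45, edgeR p 0.0924). Csf3 encodes G-CSF, the growth factor that drives neutrophil production, and had means of 100 and 57.2 CPM (log2 -0.81, SE 0.92).

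Neutrophil genes were at lower levels in PD wounds, without passing the test. Of 16 listed genes, 0 were called, 15 lay lower in PD and 1 higher, against 47.8% higher over all genes. All gene lists were chosen with earlier results of these data known. The genes of a list were measured in the same 10 libraries and can vary together. Such counts therefore describe each list, here and below, and are no test of it. Their median log2 difference was -0.73, and it stayed between -0.83 and -0.54 over the 21 alternative settings run. The summed level was 8590, 7900, 12300, 8270 and 6280 CPM in P replicates 1 to 5 and 5360, 4880, 3340, 5660 and 6570 CPM in PD. PD replicate 5 was above P replicate 5, and the other PD libraries were below all P libraries. The mean difference was -0.73 within the first set and -0.59 within the second.

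The arms did not overlap for 5 of the 16, all lower in PD, against 1.4% of all genes, a share that the scaling moved as given above. These were S100a8, Retnlg, Mmp8, Ngp and Cd177. S100a8, a subunit of the calcium-binding alarmin calprotectin, lay at 1790, 1754, 2427, 1850 and 1438 CPM in P and at 1130, 1123, 662, 1238 and 1049 CPM in PD (log2 -0.83, SE 0.81, edgeR p 0.314). Mmp8 (ENSMUSG00000005800, chr9:7558457-7568487, plus strand), the neutrophil collagenase, lay at 58.2, 52.0, 68.1, 64.7 and 61.6 CPM in P and at 28.9, 37.3, 14.7, 27.5 and 41.6 CPM in PD (log2 -1.02, SE 0.72, edgeR p 0.166). Both genes had their lowest value in PD replicate 3. Ngp, a granule protein of immature neutrophils, was the member with the lowest p. Ngp lay at 34.4, 48.6, 65.4, 45.6 and 53.6 CPM in P and at 14.3, 23.5, 1.98, 17.7 and 14 CPM in PD (log2 -1.79, SE 0.87, edgeR p 0.0489). Retnlg, a resistin-like protein made by neutrophils, had means of 841 ± 295 and 338 ± 144 CPM, a difference of -1.31 on the log2 scale (SE 0.96). Cd177, a neutrophil surface protein, had means of 52.6 ± 9.46 and 30.1 ± 5.41 CPM. Lcn2, an iron-sequestering protein of neutrophils and epithelium, overlapped between arms by 1 library, with 355 ± 78.1 and 216 ± 44.0 CPM (log2 -0.71, SE 0.44, edgeR p 0.118). S100a9, the other calprotectin subunit and the most abundant of the 16, also overlapped, with 3368 ± 866 and 2010 ± 582 CPM (log2 -0.745, SE 1.03, edgeR p 0.476). Its PD replicate 5, at 2783 CPM, was above P replicate 5, at 2455 CPM. Ltf, which encodes lactoferrin, was the member above 0, at 1.26 (edgeR p 0.187).

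**Figure D3:**
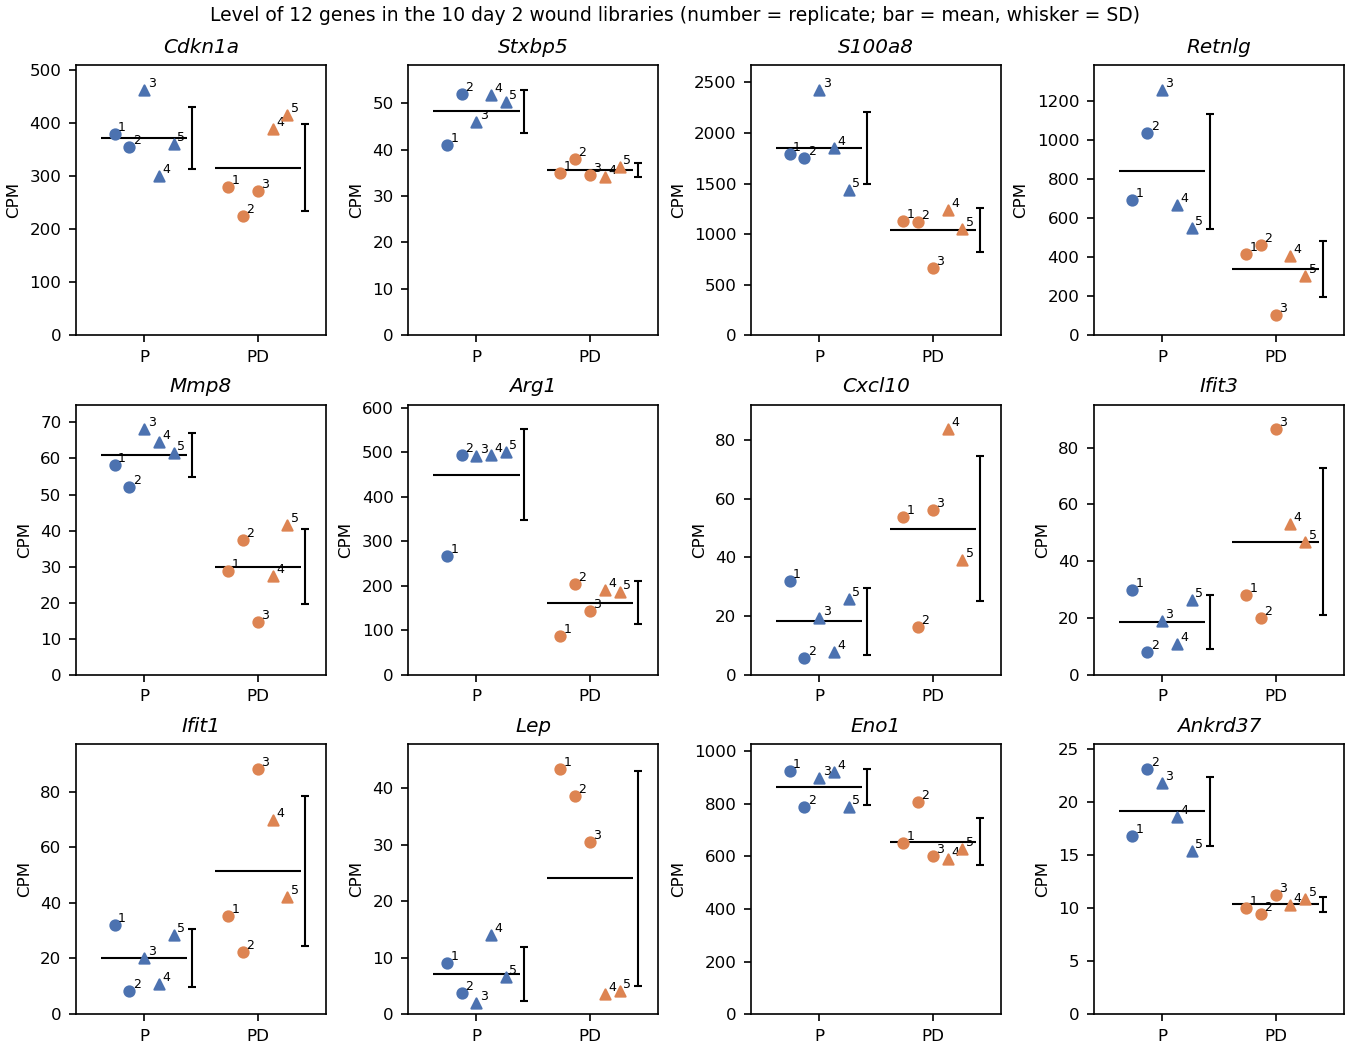
Level in CPM (y axis, from 0) of 12 genes in each P (blue) and PD (orange) library at day 2. Numbers are replicates, circles mark the first set and triangles the second, horizontal bars are means and whiskers are SD (n = 5). S100a8, Retnlg, Mmp8, Arg1, Ankrd37 and Stxbp5 do not overlap between arms, Cdkn1a does, and Lep is high in PD replicates 1 to 3 and low in PD replicates 4 and 5.

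Genes of monocytes and inflammatory macrophages also lay lower in PD as a group. Of 14 genes, 0 were called, 12 were lower and 2 higher, and the median was -0.30. With the library set as a term it was -0.52, and with 2 surrogate variables it was -0.15. The lowest values were those of Fn1, Thbs1, Lyz2 and Csf1r. Ccr2 (-0.25) and Ly6c2 (-0.06), which mark newly arrived monocytes, also lay below 0, Ccr2 close to the list median. These 2 were picked after the values were seen, and a contrast between kinds of cell was not tested. Thbs1, an adhesive matrix protein that also activates latent TGF-beta, lay at 2840, 3400, 5215, 2054 and 2031 CPM in P and at 1723, 1447, 1059, 1531 and 1798 CPM in PD (log2 -1.04, SE 0.54, edgeR p 0.0613). Its arms did not overlap. Fn1, which encodes fibronectin, had means of 1146 ± 439 and 517 ± 245 CPM (log2 -1.15, SE 0.59, edgeR p 0.0598). Csf1r, the receptor for the macrophage growth factor, had means of 323 ± 88.0 and 194 ± 53.8 CPM. Its difference was -0.37 within the first set and -1.15 within the second.

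Of the genes in the macrophage lists, Arg1 had the largest difference toward lower levels in PD. Arg1 (ENSMUSG00000019987, chr10:24791118-24803817, minus strand) encodes arginase, which competes with nitric oxide synthase for arginine. It lay at 266, 494, 492, 494 and 502 CPM in P replicates 1 to 5 and at 86.1, 205, 143, 191 and 185 CPM in PD. The arms did not overlap, and the PD mean was 2.78-fold lower (log2 -1.47, SE 0.69, edgeR p 0.04). The difference was -1.41 within the first set and -1.4 within the second, and it lay between -1.61 and -1.31 when any one library was left out. Retnla, a resistin-like protein of alternatively activated macrophages, pointed the other way at 1.43 (SE 0.92, edgeR p 0.133), with 7.76 ± 5.45 CPM in P and 20.9 ± 11.8 CPM in PD. Of the 14 genes of resident and alternatively activated macrophages 9 were higher and 5 lower, with a median of 0.07. Their mean difference was -0.14 within the first set and -0.29 within the second, so the direction depended on the measure.

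Spp1 (osteopontin), a secreted protein of wound macrophages, lay at 2570, 2784, 2972, 2526 and 2300 CPM in P and at 1648, 1599, 969, 1475 and 1260 CPM in PD. Its arms did not overlap (log2 -0.92, SE 0.81, edgeR p 0.267). Tnf, the gene of the cytokine tumour necrosis factor, lay at 182, 172, 244, 251 and 193 CPM in P and at 112, 110, 120, 137 and 140.3 CPM in PD (log2 -0.75, SE 0.67, edgeR p 0.27). Every PD library was below every P library here too. The standard errors come from the spread over all groups of the series, unwounded skin included. In a fit of the 10 libraries alone they were 0.16 for Spp1 and 0.13 for Tnf, with an edgeR adjusted p of 0.351 for both.

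Genes of interleukin-1, interleukin-6 and Tnf signalling lay lower in 20 of 24 cases, with 0 called and a median of -0.27. Without a composition factor it was 17 of 24. Il1b, an early inflammatory cytokine, had means of 1291 and 1069 CPM (log2 -0.27, SE 0.98) and Il6 a difference of 0.27. Il1rap, a shared subunit of interleukin-1 receptors, was the member with the lowest p, at 69.1 ± 27 and 44.6 ± 9.37 CPM (log2 -0.63, SE 0.29, edgeR p 0.0348). Tnfaip3, an inhibitor of NF-kB signalling that NF-kB itself induces, differed by -0.48 (SE 0.33, edgeR p 0.15). All 10 immediate early genes were lower, with a median of -0.29 and 0 called. Their mean difference was -0.45 within the first set and 0.05 within the second. Myc, the member nearest 0, had a difference of -0.01 that was above 0 without a composition factor and with DESeq2 size factors. Jun, a subunit of the AP-1 transcription factor, had means of 295 ± 31.1 and 230.1 ± 43.8 CPM (log2 -0.36, SE 0.22, edgeR p 0.116).

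Chemokines did not lie to one side. Of 22 genes, 12 were higher and 10 lower, with a median of 0.07. Those with an unadjusted p under 0.05 were Cxcl10 and Ccl5, both attractants of T and NK cells and both higher in PD. Ccl5 had means of 1.82 ± 0.87 and 3.45 ± 1.87 CPM (log2 0.92, SE 0.45, edgeR p 0.048). Cxcl2 and Cxcl3, which attract neutrophils, had differences of -0.64 (SE 1.33, edgeR p 0.634) and -0.87 (edgeR p 0.454). T and NK lymphocyte genes had 9 members higher and 5 lower, and mean differences of 0.24 within the first set and -0.56 within the second, so the lymphocyte list did not lie to one side either.

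Interferon-induced genes were at higher levels in PD wounds, again without passing the test. All 16 lay above 0, 0 were called, 3 had an unadjusted p under 0.05, and the median log2 difference was 0.97. It lay between 0.81 and 1.24 over the 21 alternative settings run. Interferons are secreted on sensing of nucleic acids or microbes, and their receptors activate transcription factors that switch on antiviral genes. The summed level was 654, 237, 478, 271 and 503 CPM in P replicates 1 to 5 and 661, 426, 1160, 954 and 761 CPM in PD. PD replicates 1, 3, 4 and 5 were above all P libraries, while PD replicate 2 was below P replicates 1, 3 and 5. The mean difference was 0.86 within the first set and 1.12 within the second.

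Promoters of the 3 members with the lowest p are shown because they carry a common motif. The sequences are from RefSeq on GRCm38.p6, 250 bases before to 50 after the transcription start, 5′ to 3′ on the gene's strand. Capitals mark GAAANNGAAA, the core of the interferon-stimulated response element, on either strand (TTTCNNTTTC on the other strand).
Cxcl10, chr5:92348840-92349139 (minus strand): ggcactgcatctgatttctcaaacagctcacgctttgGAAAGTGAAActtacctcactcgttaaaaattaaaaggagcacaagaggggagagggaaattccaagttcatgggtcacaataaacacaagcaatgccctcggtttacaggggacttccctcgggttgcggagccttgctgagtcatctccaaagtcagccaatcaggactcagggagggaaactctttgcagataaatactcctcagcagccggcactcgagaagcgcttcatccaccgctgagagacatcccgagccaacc
Ifit3, chr19:34583279-34583578 (plus strand): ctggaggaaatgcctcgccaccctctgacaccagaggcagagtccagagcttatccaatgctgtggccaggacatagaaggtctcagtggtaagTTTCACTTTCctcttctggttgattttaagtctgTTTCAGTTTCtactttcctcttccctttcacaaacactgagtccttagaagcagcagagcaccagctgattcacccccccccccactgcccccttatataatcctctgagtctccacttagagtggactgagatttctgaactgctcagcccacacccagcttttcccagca
Ifit1, chr19:34640639-34640938 (plus strand): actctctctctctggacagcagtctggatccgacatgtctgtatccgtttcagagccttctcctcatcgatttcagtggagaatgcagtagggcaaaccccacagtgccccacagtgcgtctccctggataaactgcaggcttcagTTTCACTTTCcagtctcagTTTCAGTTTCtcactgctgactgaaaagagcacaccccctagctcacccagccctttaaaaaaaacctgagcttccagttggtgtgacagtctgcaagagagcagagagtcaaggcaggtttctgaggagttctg
The window held 1 match in Cxcl10, 2 in Ifit3 and 2 in Ifit1. Of the 12 RefSeq promoters matched to 11 of the list's genes, 7 held the motif (58.3%), against 3.44% of all 32851 promoters of the table. The list was written from genes known to respond to interferon, so this share describes the list and not the arms. A match is a description of the letters and shows no binding.

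Cxcl10 (ENSMUSG00000034855, GRCm39 chr5:92494497-92496748, minus strand) encodes a chemokine that interferons induce. It lay at 32.1, 5.85, 19.4, 7.67 and 25.9 CPM in P and at 53.9, 16.2, 56.0, 83.7 and 39.0 CPM in PD. The log2 difference was 1.45 (SE 0.56, 95% interval 0.30 to 2.60, edgeR p 0.0151), and PD replicate 2 was within the P range. Ifit3 (chr19:34560899-34566443, plus strand), a subunit of a complex that binds viral RNA, lay at 29.9, 7.82, 18.8, 10.7 and 26.3 CPM in P and at 28.2, 19.8, 86.5, 53 and 46.9 CPM in PD (log2 1.33, SE 0.58, edgeR p 0.029). Its PD replicates 1 and 2 were within the P range. Ifit1 (chr19:34618271-34632174, plus strand), another RNA-binding subunit, lay at 32, 8.49, 20.3, 11 and 28.6 CPM in P and at 35.4, 22.2, 88.2, 69.6 and 42 CPM in PD (log2 1.36, SE 0.65, edgeR p 0.0446). P replicates 2 and 4 were the lowest libraries for all 3 genes.

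The other members differed by similar or smaller amounts. Rsad2, which encodes the antiviral enzyme viperin, had means of 37.0 ± 23.1 and 91.9 ± 47.9 CPM (log2 1.31, SE 0.69, edgeR p 0.0648). Irf7, the transcription factor that amplifies interferon production, had means of 64.3 ± 25.3 and 114 ± 46.4 CPM (log2 0.83, SE 0.44). Isg15, a ubiquitin-like modifier, had means of 41.7 ± 18.5 and 77.0 ± 31.3 CPM (log2 0.88, SE 0.48).

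Genes of glycolysis and of the hypoxia response were lower in PD wounds. Cells short of oxygen stabilise the factor HIF-1, which raises glucose transport, glycolytic enzymes and several stress proteins. All 16 lay below 0 under each of the 3 scalings, 0 were called, 4 had an unadjusted p under 0.05, and the median was -0.34. It lay between -0.43 and -0.28 over the 21 alternative settings run. The mean difference was -0.33 within each set. The summed level overlapped between arms, at 11100 to 18600 CPM in P and 9470 to 17500 CPM in PD.

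Eno1 (ENSMUSG00000063524, chr4:150321073-150337027, plus strand), a glycolytic enolase, had the lowest p of the list. It lay at 924, 789, 896, 921 and 788 CPM in P and at 652, 808, 601, 590 and 628 CPM in PD (log2 -0.40, SE 0.12, edgeR p 0.00222). PD replicate 2 was within the P range and the other PD libraries were below it. Pgam1, the phosphoglycerate mutase, lay at 151, 145, 115, 129.9 and 108 CPM in P and at 96.3, 109.8, 78.8, 75.0 and 86.1 CPM in PD (log2 -0.54, SE 0.17, edgeR p 0.00326). Only PD replicate 2 reached the P range. Ddit4, an inhibitor of the growth kinase mTORC1 that hypoxia induces, had means of 90.9 ± 22 and 61.9 ± 6.17 CPM (log2 -0.55, SE 0.20, edgeR p 0.0102). Ldha, lactate dehydrogenase, had the values 1325, 1420, 2196, 1930 and 1674 CPM in P and 1482, 1282, 1374, 1992 and 1505 CPM in PD (log2 -0.16, SE 0.28). Its arms overlapped, with PD replicate 2 alone below all P libraries.

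Ankrd37, an ankyrin-repeat gene that HIF-1 is known to induce, was the member whose arms did not overlap. Ankrd37 (ENSMUSG00000050914, GRCm39 chr8:46449939-46458744, minus strand) lay at 16.8, 23.1, 21.8, 18.6 and 15.4 CPM in P and at 10.01, 9.44, 11.2, 10.3 and 10.9 CPM in PD. The means were 19.1 ± 3.27 and 10.4 ± 0.69 CPM (SD, n = 5 each). The log2 difference was -0.88 (SE 0.33, edgeR p 0.0129), -0.95 within the first set and -0.79 within the second. Its promoter is shown with ACGTG, the core of the hypoxia response element, in capitals on either strand (CACGT on the other strand), from RefSeq on GRCm38.p6.
Ankrd37, chr8:45999801-46000100 (minus strand): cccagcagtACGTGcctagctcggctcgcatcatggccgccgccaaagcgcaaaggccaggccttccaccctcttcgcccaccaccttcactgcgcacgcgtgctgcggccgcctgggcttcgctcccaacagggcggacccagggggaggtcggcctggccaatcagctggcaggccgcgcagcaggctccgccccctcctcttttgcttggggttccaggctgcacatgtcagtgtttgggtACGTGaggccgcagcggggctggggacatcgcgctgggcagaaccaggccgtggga
The window held 2 matches. The motif was in 16 of 23 promoters matched to the list's 16 genes (69.6%), against 19.6% of all 32851 promoters. The list was written from known genes of glycolysis and the hypoxia response, so this share describes the list and not the arms. A match shows no binding. Ero1a, an oxidase of the endoplasmic reticulum that hypoxia also induces, lies outside the list and was picked after its values were seen. It lay at 63.9, 120.7, 78.4, 53.3 and 61.3 CPM in P and at 42.8, 40.5, 41.5, 32.4 and 32.7 CPM in PD, without overlap (log2 -0.99, SE 0.34, edgeR p 0.00572).

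Nuclear genes of the respiratory chain lay slightly the other way, with 16 of 17 above 0, 0 called and a median of 0.09. That median was -0.06 with limma-voom. The 12 tested respiratory genes of the mitochondrial genome had 9 members lower and 3 higher, with a median of -0.14. Their mean difference was 0.35 within the first set and -0.33 within the second.

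**Figure D4:**
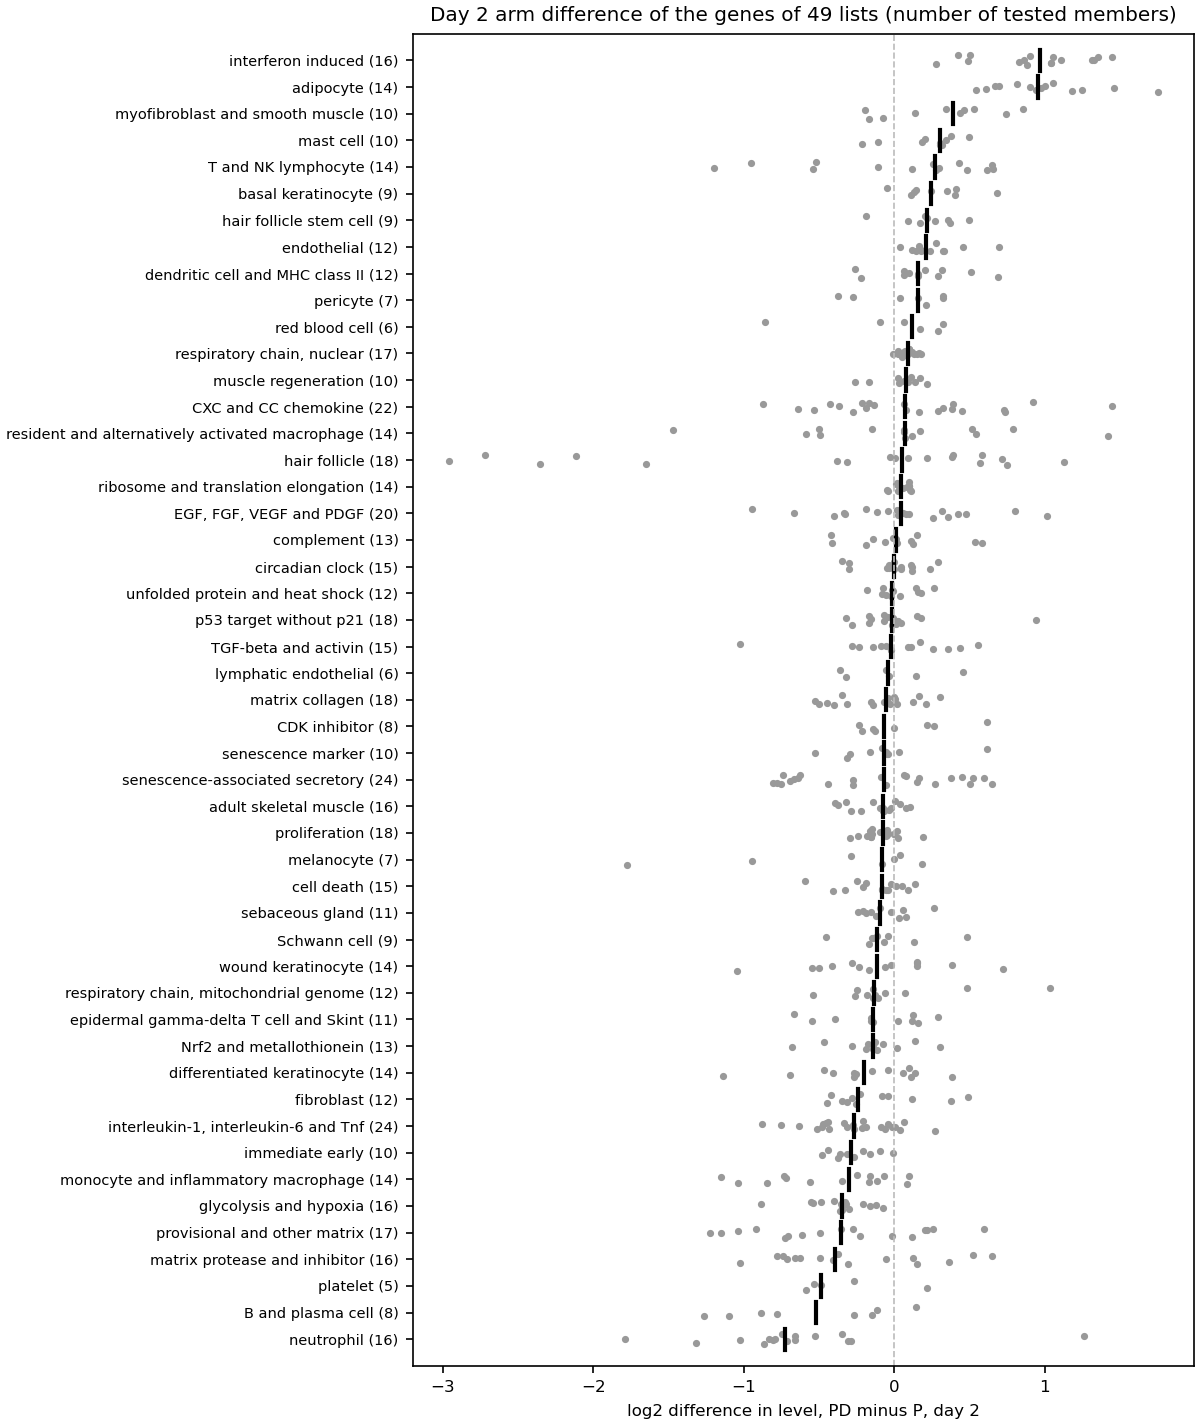
Log2 difference in level between PD and P at day 2 (x axis) for the tested genes (grey points) of 49 gene lists (y axis, with the number of tested members), ordered by the median (black bar). The interferon-induced and adipocyte lists lie highest, at 0.97 and 0.96, and the neutrophil list lowest, at -0.73.

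Adipocyte genes had as large a median as the interferon list, but 3 PD libraries carried it. Fat cells of the dermis and the layer below it store lipid and secrete hormones such as leptin. All 14 genes lay above 0, 0 were called, 6 had an unadjusted p under 0.05, and the median was 0.96. The summed level was 2860, 2610, 2550, 4800 and 3080 CPM in P replicates 1 to 5 and 6490, 10300, 7300, 2660 and 1590 CPM in PD. PD replicates 1, 2 and 3 were above all P libraries, while PD replicate 5 was below all of them. The mean difference was 1.8 within the first set and -0.88 within the second, and with the library set as a term the median was 0.37. Over the omission of any one library it ran from 0.49 to 1.32.

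Lep (ENSMUSG00000059201, chr6:29060216-29073877, plus strand), the gene of leptin, lay at 9.12, 3.73, 1.99, 14 and 6.67 CPM in P and at 43.4, 38.6, 30.5, 3.60 and 4.09 CPM in PD (log2 1.76, SE 0.74, edgeR p 0.0236). With the library set as a term it differed by 0.81 (edgeR p 0.393). Lipe, the hormone-sensitive lipase, differed by 1.05 (SE 0.41, edgeR p 0.0149), and by 0.37 with that term (edgeR p 0.39). Pparg, the master transcription factor of fat cells, had means of 23.7 ± 5.40 and 36.2 ± 13.5 CPM (log2 0.61, SE 0.26, edgeR p 0.0233). Its difference was 1.23 within the first set and -0.17 within the second. The amount of fat tissue in each sample was not given in the labels, and its part in these values was not tested.

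Endothelial and collagen genes differed between the 2 sets more than between the arms, with mean log2 levels 1.2 and 1.35 higher in the first set. The sets were drawn from the levels of all genes, these included, so a difference between sets is partly built in. All 12 endothelial genes lay above 0, with a median of 0.21 and 0 called, but the mean difference was 0.32 within the first set and -0.6 within the second. Cldn5, a tight-junction protein of vessels, had means of 11.2 ± 4.46 and 18.2 ± 10.8 CPM (log2 0.70, SE 0.40, edgeR p 0.0886). Of 18 collagens 12 lay lower and 6 higher, with a median of -0.05 that was 0.01 without a composition factor. Col1a1, the main fibrillar collagen of dermis, lay at 2336, 3965, 1146, 1116 and 1086 CPM in P and at 1531, 2605, 2092, 366 and 499 CPM in PD. Every library of the first set was above every library of the second, in both arms.

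Provisional and other matrix genes had a median of -0.35, with 12 of 17 lower and 0 called. Lox, the enzyme that crosslinks collagen and elastin, had means of 146 ± 124 and 62.5 ± 39.5 CPM (log2 -1.22, SE 0.64, edgeR p 0.0653). P replicate 2 held the highest value, 363 CPM, and the difference was -0.55 at its smallest when a library was left out. Matrix protease and inhibitor genes had a median of -0.39, with 11 of 16 lower. The arms did not overlap for Mmp8 and Timp1, given above.

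Contractile genes of myofibroblasts and smooth muscle had 7 of 10 members higher and a median of 0.39. The mean difference was 0.29 within the first set and 0.09 within the second. The summed level went the other way, with a median of 4690 CPM in P and 3770 CPM in PD. Cnn1, which encodes the actin-binding protein calponin, lay at 8.56, 6.43, 3.37, 6.75 and 3.13 CPM in P and at 17.8, 9.93, 10.9, 5.65 and 6.94 CPM in PD (log2 0.86, SE 0.38, edgeR p 0.031). Actg2, a smooth muscle actin, differed by 0.74 (SE 0.36, edgeR p 0.0496). Both overlapped between arms. With the library set as a term the edgeR p was 0.0836 for Cnn1 and 0.116 for Actg2. Genes of adult skeletal muscle had a median of -0.07, with sums of 19000 to 52800 CPM in P and 19200 to 63400 CPM in PD.

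Keratinocyte lists did not separate the arms. Of 9 basal keratinocyte genes 8 were higher, with a median of 0.24. The mean difference was -0.07 within the first set and 0.63 within the second. Itgb4, a subunit of the integrin that anchors basal cells to the basement membrane, had means of 246 ± 79.1 and 328 ± 75.0 CPM (log2 0.41, SE 0.27, edgeR p 0.139). Wound keratinocyte genes had a median of -0.11, with sums of 2880 to 16000 CPM in P and 4070 to 12700 CPM in PD. Their mean difference turned from -0.54 within the first set to 0.22 within the second. Proliferation genes had 14 of 18 members lower with a median of -0.08 (-0.01 without a composition factor, 9 higher and 9 lower), and mean differences of -0.28 and 0.06 within the sets. Mki67, a marker of dividing cells, had means of 141 ± 26.2 and 120.0 ± 20.8 CPM (log2 -0.24, SE 0.24).

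Ligands of the TGF-beta superfamily had opposite signs. Inhba, which encodes the subunit of activin A, a wound-induced growth factor, lay at 54.4, 94.7, 74.6, 31.6 and 33.7 CPM in P and at 47.2, 24.4, 24.3, 24.1 and 22.1 CPM in PD (log2 -1.02, SE 0.47, edgeR p 0.0355). All PD libraries except replicate 1 were below all P libraries. Bmp4, a bone morphogenetic protein, lay at 5.73, 5.55, 3.37, 5.17 and 5.89 CPM in P and at 7.43, 6.45, 8.54, 8.52 and 7.01 CPM in PD, without overlap (log2 0.56, SE 0.35, edgeR p 0.124). Over the 15 genes of the list 7 were higher and 8 lower.

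The 12 genes with the lowest p on the lower side, among those averaging 1 CPM or more, had transcripts of 5390 to 16296 bases, all longer than the median of 4328 bases for protein-coding genes. How this length moves with the arm difference over all genes is given further on, and its part in these values was not tested. Of the 12 genes, 11 had arms that did not overlap, the exception being Dennd11 (log2 -0.85, SE 0.21, edgeR p 0.000304). The genes were picked by the p of this same comparison, which favours separated arms, so that count adds no support. Over all genes 1.4% had every PD library lower, a share that the scaling moved as given above. Tut7, a uridylyltransferase that marks RNA for decay, lay at 145, 186, 190, 144 and 130.0 CPM in P and at 115, 106, 109, 107 and 112 CPM in PD (log2 -0.54, SE 0.14, edgeR p 0.000451). Ep300, a histone acetyltransferase and transcriptional coactivator, lay at 72.5, 86.4, 78.4, 80.7 and 69.0 CPM in P and at 61.6, 54.0, 55.2, 54.3 and 58.8 CPM in PD (log2 -0.45, SE 0.12, edgeR p 0.000478). These are small differences with small standard errors in the fit of all groups, unlike those of the neutrophil genes. In the 10 libraries alone the errors were 0.116 for Tut7 and 0.084 for Ep300. Those of Cd177, S100a8 and Ngp were 0.155, 0.189 and 0.475 there. The choice of these 12 genes depends on the fit. Between the 2 fits the edgeR p went from 0.000404 to 0.00876 for Hipk1 and from 0.162 to 0.000443 for Cd177. Hipk1, a nuclear kinase, differed by -0.40 (SE 0.10), Kmt2e, a chromatin reader, by -0.34 (SE 0.09), and Ncoa3, a coactivator of nuclear receptors, by -0.30 (SE 0.08). Gnptab, which tags enzymes for delivery to lysosomes, differed by -0.41 (SE 0.11). Abcc1, an exporter of glutathione conjugates and drugs, differed by -0.39 (SE 0.11), and Slc23a2, a vitamin C transporter, by -0.56 (SE 0.16). Rab3gap2, a subunit of a Rab GTPase regulator, had the smallest difference of the group, -0.29 (SE 0.08).

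On the higher side the lowest p among genes averaging 1 CPM or more belonged to Csad, which makes a precursor of taurine. Csad lay at 27, 27, 29.8, 36.8 and 27.8 CPM in P and at 36.4, 43.9, 43.4, 39.6 and 38.3 CPM in PD (log2 0.44, SE 0.13, edgeR p 0.00171). P replicate 4 alone reached the PD range. Trabd2b, a membrane protease that inactivates Wnt ligands, lay at 22.4, 14.5, 22.8, 20.2 and 17.7 CPM in P and at 32.2, 26.1, 36.4, 26.5 and 29.8 CPM in PD, without overlap (log2 0.63, SE 0.19, edgeR p 0.00286). Tnfrsf25, a death receptor of T cells, and Fam219b did not overlap either, with differences of 0.60 (SE 0.20) and 0.26 (SE 0.09). Uck1, a pyrimidine nucleoside kinase, differed by 0.73 within the first set and by 0.08 within the second. Arxes2 and Nnat, the members of this group with the largest differences, had the same PD libraries high as the fat genes: Nnat lay at 82.4, 53.5, 19.96, 69.9 and 69.0 CPM in P and at 316, 550, 272, 46.8 and 17.2 CPM in PD (log2 2.03, SE 0.70, edgeR p 0.00683). Its difference was 2.44 within the first set and -0.69 within the second.

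Genes with long transcripts lay lower in PD than genes with short ones. Among 13825 protein-coding genes with a mean of at least 1 CPM, split into 5 groups of equal number, those with the shortest transcripts (204 to 2673 bases for the longest annotated transcript) had a median log2 difference of 0.044. The following groups had medians of 0.018, -0.006 and -0.039, and the group with the longest transcripts (6414 to 123193 bases) had -0.088. Arms that did not overlap with PD lower made up 0.904% of the shortest group and 4.01% of the longest. The 245 protein-coding genes of that kind had a median transcript length of 6061 bases, against 4328 for all and 3557.5 for the 32 with PD higher. The mean log2 level of the longest group minus that of the shortest, relative to the 10 libraries, ran from -0.03 to 0.307 in P and from -0.181 to 0.026 in PD. P replicate 2 held the highest value and PD replicates 4 and 5 the lowest. RNA quality was not given in the labels, and its part in this gradient was not tested.

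The difference at day 2 was set against the same difference at days 4 and 12, which use other libraries. With edgeR, 0 genes differed between day 2 and day 4 at an adjusted p under 0.05 (0%), 1472 had an unadjusted p under 0.05 (7.13%), and the smallest adjusted p was 0.633. DESeq2 called 78 genes for the same contrast and limma-voom with sample weights 2826, 1395 of them higher and 1431 lower at day 2 than at day 4, so the outcome depended on the test. Between day 2 and day 12 edgeR called 0 genes (0%) with 547 at an unadjusted p under 0.05 (2.65%), DESeq2 called 19 and limma-voom 0.

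Several of the genes described above had an opposite sign at day 4. Neutrophil genes had a median of -0.73 at day 2, 0.79 at day 4 and -0.90 at day 12. Glycolysis and hypoxia genes had medians of -0.34, 0.28 and 0.16, and interferon-induced genes 0.97, -0.17 and 0.38. Ankrd37 differed by -0.88 at day 2, by 0.83 at day 4 and by 0.16 at day 12, and the edgeR p for day 2 against day 4 was 0.000857 (adjusted p 0.633). Tut7 differed by -0.54 at day 2 and by 0.24 at day 4, with an edgeR p of 0.000285 for that contrast (adjusted p 0.633). Cdkn1a differed by -0.23 at day 2, 0.41 at day 4 and 0.40 at day 12, with edgeR p-values of 0.0253 and 0.0232 for day 2 against those days. Arg1 had almost the same difference at day 12 as at day 2, -1.41 and -1.47, and 0.20 at day 4. Tnf had -0.75 at day 2 and 1.05 and 1.53 at the later days. Cnn1 had 0.86 at day 2 and -1.18 at day 12 (edgeR p 0.000421 for the contrast). None of these contrasts passed the adjustment with edgeR.

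**Figure D5:**
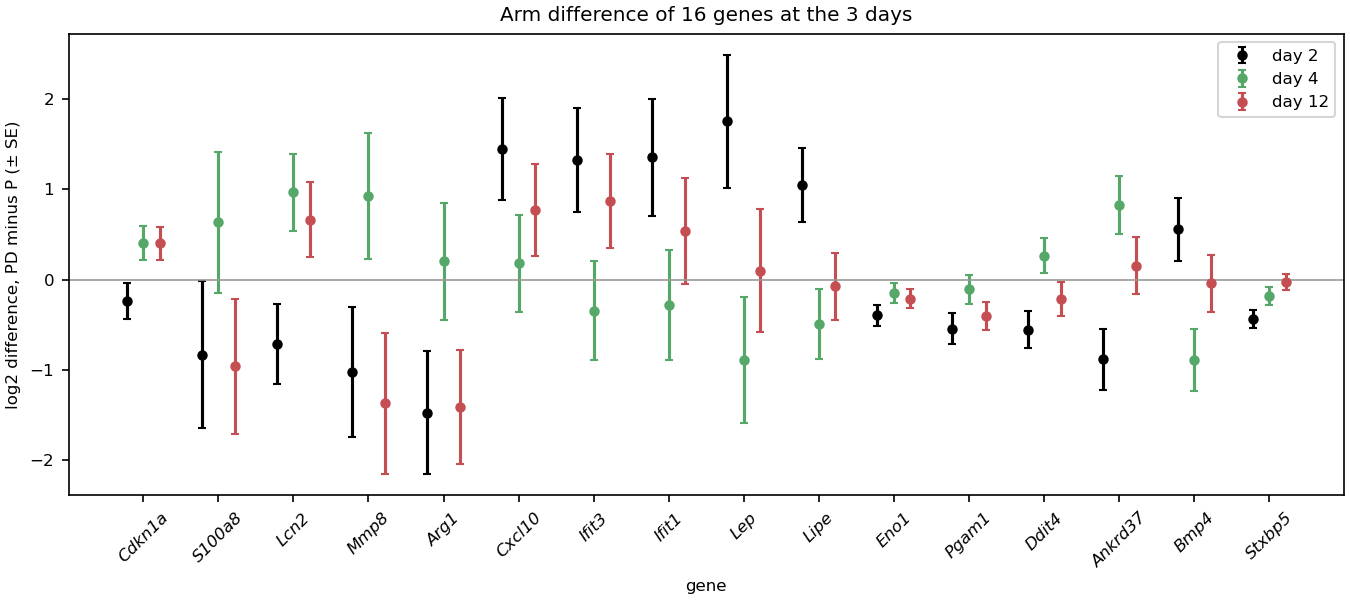
Log2 difference between PD and P (y axis, whiskers are SE of the edgeR fit) of 16 genes (x axis) at day 2 (black), day 4 (green) and day 12 (red), with 5 against 5, 5 against 6 and 6 against 6 libraries. Ankrd37 lies at -0.88, 0.83 and 0.16, and Cdkn1a at -0.23, 0.41 and 0.40.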

How the data were processed

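Total RNA of snap-frozen wounds was prepared with a stranded mRNA kit and sequenced, per the labels' protocols. The authors deposited whole-number counts of reads per gene, not normalized, in one file per library. The submitters' processing notes name Trimmomatic, HISAT2 2.1.0, SAMtools 1.9 and HTSeq, and the mouse build GRCm39. The strand setting of the counting and the annotation release are not given in the sources used here, so genes that overlap another gene, and close relatives that share reads, are less certain.

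Each library held 55414 genes, of which 54749 (98.8%) were found by identifier in the GENCODE vM39 annotation of GRCm39 that gave the coordinates. Counts of all 36 libraries were scaled by TMM and fitted with edgeR 4.0.16 in R 4.3.3 (quasi-likelihood, robust, a mean per group). Genes were filtered with filterByExpr (min.count 10, min.total.count 15), which kept 20657 genes. All p-values are two-sided and were adjusted by Benjamini-Hochberg over all genes tested, with a threshold of 0.05. Levels are CPM after TMM scaling, and log2 CPM used a prior count of 2. Alternatives were DESeq2 1.42.0, limma-voom (limma 3.58.1), 2 surrogate variables (sva 3.50.0), other scalings and filters, the 10 libraries alone, a replicate block and the omission of each library. A term for the library sets, and the alternatives for list medians and for counts of genes whose arms do not overlap, were added after the data were seen. The code was tested on simulated data.

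The comparison and the 49 gene lists (656 entries, 651 tested) were chosen with earlier results of these data known. Named genes were Cdkn1a, the 12 with the lowest p on either side among genes averaging 1 CPM or more, and of every list the 4 with the lowest p and the most abundant. The text holds part of these, picked after the values were seen. S100a8, Retnlg, Spp1, Tnf, Csf3, Ldha, Rsad2, Isg15, Myc, Ly6c2, Ccr2, Cxcl3, Il6, Ltf and Ero1a lie outside the rule. Replicate depth of 23.419 to 47.378 M counts leaves counting error small for all genes named except those under about 1 CPM.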

Additional observations from a re-analysis of the deposited data

Results flagged for a closer look

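Single libraries stood far from the other 4 of their arm in 13 of the 166 groups of values examined, where the gap to the nearest library was over 0.71 of the arm's range. Chance flags about 1 in 20 such groups. Among immune genes, Arg1 was lowest in P replicate 1, at 266.1 CPM against 491.8 to 501.5 CPM in the others. Csf1r was highest in P replicate 4, at 471.7 CPM against 255.6 to 315.9 CPM, and Lyz2 was highest in PD replicate 2, at 1616 CPM against 780.2 to 872.9 CPM. Inhba was highest in PD replicate 1, at 47.2 CPM against 22.12 to 24.42 CPM, and Bmp4 was lowest in P replicate 3, at 3.373 CPM against 5.175 to 5.891 CPM.

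Among keratinocyte genes, Krt17 was highest in P replicate 1, at 1758 CPM against 298.2 to 629 CPM. Itgb4 was highest in the same library, at 385.7 CPM against 192.6 to 226.3 CPM. Lox was highest in P replicate 2, at 362.6 CPM against 56.18 to 127.8 CPM, and Mki67 was lowest in PD replicate 1, at 84.4 CPM against 122.3 to 137.1 CPM. Eno1 was highest in PD replicate 2, at 808.4 CPM against 589.6 to 652.4 CPM. Gnptab was lowest in P replicate 1, at 52.84 CPM against 65.9 to 68.56 CPM, and Csad was highest in P replicate 4, at 36.79 CPM against 26.96 to 29.8 CPM. The summed level of adipocyte genes was highest within the P arm in replicate 4, at 4800 CPM against 2550 to 3080 CPM.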

How the results depend on the processing

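The count of 0 called genes between PD and P held in each edgeR fit tried. DESeq2 called 24 and limma-voom 1. Between day 2 and day 4 DESeq2 called 78 and limma-voom 2826, and between day 2 and day 12 DESeq2 called 19. Without a composition factor, 146 genes had every PD library below every P library and 139 above. With 1 library left out, the first count ran from 355 to 458 and the second from 92 to 166, where fewer libraries make separation easier by construction. Cdkn2a ran from -0.05 without PD replicate 3, a reversal, to 1.07 without P replicate 4, and Col1a1 reversed to 0.10 with limma-voom, and for both the cause was not tested. The other genes followed kept their direction, and of these Stxbp5 passed the threshold with DESeq2 and with limma-voom.

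List medians moved by less than the spread between libraries under each alternative, but 2 of the 8 followed changed sign: nuclear respiratory genes to -0.06 with limma-voom, and the senescence-associated secretory list in 5 settings. The fit of the 10 libraries alone tested 17654 genes, with 1146 at an unadjusted p under 0.05 and a smallest adjusted p of 0.351. It gave smaller standard errors to neutrophil and macrophage genes: that of S100a8 was 0.19 in place of 0.81. Genes under about 1 CPM are limited by depth.

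Deviations of same-numbered libraries correlated at 0.43, 0.46, -0.25, 0.32 and 0.32. Because replicate 3 was negative and no label ties the numbers to an animal or day, the libraries were not treated as paired, and not every library correlated best with its own number. With a replicate block, 0 genes were called, 1108 had an unadjusted p under 0.05 and the smallest adjusted p was 0.406.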

Other observations

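Of 20 genes of the EGF, FGF, VEGF and PDGF families, 12 lay higher in PD and 8 lower, with 0 called and a median log2 difference of 0.04. Areg, a ligand of the EGF receptor, had means of 19.1 CPM in P and 33.4 CPM in PD (log2 0.81, SE 0.41, edgeR p 0.0608). Fgf10, a mesenchymal growth factor that acts on epithelium, had means of 4.52 and 9.17 CPM (log2 1.02, SE 0.56, edgeR p 0.0759), and its receptor gene Fgfr2 differed by 0.35 (SE 0.20). Vegfa, which drives vessel growth and is induced by hypoxia, lay the other way, at 239 and 181 CPM (log2 -0.40, SE 0.26, edgeR p 0.138).

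Of 8 tested genes of B and plasma cells, 7 lay lower in PD, with a median of -0.52 and low levels. Cd79a, a subunit of the B cell receptor, had means of 0.82 and 0.34 CPM (log2 -1.27, SE 0.67, edgeR p 0.0688). The mean difference of that list was 0.23 within the first set of libraries and -0.9 within the second. Slc7a11, the cystine transporter that feeds glutathione synthesis, was the member of the 13 Nrf2 and metallothionein genes whose arms did not overlap, at 167 and 104 CPM (log2 -0.68, SE 0.42, edgeR p 0.114). Globin and other red cell genes summed to 1220 CPM in P replicate 5 and 1530 CPM in PD replicate 3, against 99.1 to 209 CPM in the other 8 libraries. Of 15 circadian clock genes 8 were higher and 7 lower, with a median of 0.00.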
